A study of Homo sapiens with 6 samples.

Results

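The genes described here encode the carriers of the mitochondrial inner membrane and their relatives, measured by RNA-seq in the triple-negative breast cancer (TNBC) line MDA-MB-231, an established human line. Members were taken by name: every gene whose symbol begins with SLC25A and a number, plus UCP2, UCP3, MPC1, MPC2, MTCH1 and MTCH2. This gave 53 of the 17631 genes in the files, of which 47 carry an SLC25A symbol. The study compared 3 libraries from cells given vehicle with 3 from cells given 30 µM PDBAG1, both for 24 h. PDBAG1 is a synthetic peptide made of a stretch of the enzyme GPD1 joined to a cell-penetrating sequence. All libraries came from the same cell line, so they describe 1 genetic background. The labels do not say whether the 3 libraries of a group came from separate cultures, so the spread between them may be technical.

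Most members belong to the SLC25 family, nuclear-encoded proteins that carry metabolites, nucleotides, cofactors and ions across the otherwise tight inner membrane. They connect the cytosol with the respiratory chain: the ADP/ATP carriers exchange spent and new adenine nucleotides, the phosphate carrier brings in phosphate for ATP synthase, and others feed in the substrates of the citric acid cycle. A few members work elsewhere, such as MTCH1, MTCH2 and SLC25A46 in the outer membrane and SLC25A17 in peroxisomes. MPC1 and MPC2 form the pyruvate carrier and belong to a separate protein family. The study addressed mitochondrial function in PDBAG1-treated cells, and SLC25A22, a glutamate carrier, is a protein it examined by name.

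Values are TPM, a share of all transcripts in a library, which are scaled for gene length, so that levels can be set against each other between genes as well as between libraries. Expressed genes, those reaching 1 TPM in no fewer than 3 libraries, were tested by limma on log2(TPM + 1), a scale on which fold changes of low genes are understated, and p values were adjusted over all 12582 of them by the Benjamini-Hochberg method. The log2 fold change of PDBAG1 over vehicle is written log2FC, with its standard error (SE), and levels after ± are the SD of the n = 3 libraries of a group. Depth per library is unknown, because TPM keeps no read counts. Log2 differences between 2 libraries had an SD over genes of 0.14 to 0.18 within a group and 0.28 to 0.30 between groups. The cell line was checked against mesenchymal, receptor and epithelial markers. VIM was at 4270 ± 87.5 TPM and CD44 at 321 ± 9.24 TPM in vehicle libraries, and EGFR was at 69.6 ± 5.41 TPM. CDH1 was at 0.567 ± 0.158 TPM, PGR at or below 0.0600 TPM, ESR1 at 2.26 ± 0.240 TPM, EPCAM at 5.14 ± 1.06 TPM and ERBB2 at 24.7 ± 0.633 TPM. Of 3 markers of other cell types, the leukocyte gene PTPRC was between 0.860 and 1.41 TPM in all 6 libraries. In all, 4 of the 8 markers tested were higher after PDBAG1 (21.7% of all genes were), VIM at 5877 ± 103, CD44 at 484 ± 19.0, and 2 genes of other cell types. The macrophage-associated gene CD68 was at 257 ± 6.55 TPM in vehicle cells and 318 ± 11.8 TPM after PDBAG1, and the endothelial gene PECAM1 at 3.94 ± 0.152 and 8.64 ± 0.680 TPM. The part of these markers in the carrier results was not tested. In bulk RNA of 1 line, a change in the number of cells expressing a gene and a change in its RNA per cell cannot be told apart.

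Together the 53 genes held 0.362% to 0.366% of each vehicle library and 0.355% to 0.360% of each PDBAG1 library. Their summed level was 3639 ± 22.5 TPM in vehicle cells and 3573 ± 22.6 TPM after PDBAG1, without overlap (exact two-sided permutation test, p = 0.1, the smallest that 3 against 3 can give). A handful of genes dominated. In vehicle libraries the order was SLC25A3 at 690 ± 4.48 TPM, SLC25A5 at 556 ± 15.9 TPM, MTCH1 at 352 ± 4.91 TPM, SLC25A6 at 282 ± 4.42 TPM and MTCH2 at 176 ± 1.77 TPM. Each of these stood above the next without overlap between libraries, whereas MTCH2 overlapped SLC25A39, the sixth, at 172 ± 3.15 TPM. These top 5 made up 56.4% to 56.8% of the summed level with vehicle and 55.5% to 56.3% with PDBAG1. Below the first 20 genes most neighbours in the order overlapped. At the other end, 6 members did not pass the expression filter and were not tested. SLC25A2 and SLC25A48 were listed at 0 in 5 of 6 libraries. SLC25A31, the testis ADP/ATP carrier, did not exceed 0.130 TPM, SLC25A18 did not exceed 0.290 TPM, SLC25A53 0.970 TPM and SLC25A41 1.15 TPM.

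**Figure D1:**
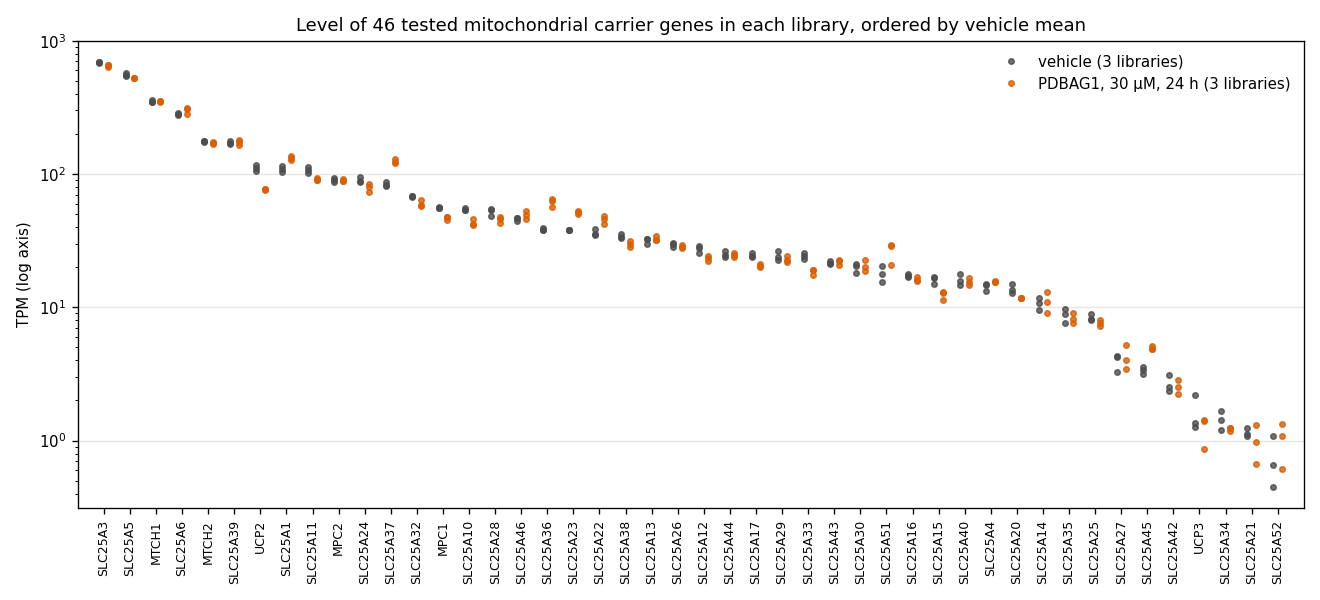
TPM on a log axis for 46 of the 47 tested carrier genes, ordered by the vehicle mean, with 1 point per library (vehicle grey, PDBAG1 orange, 3 libraries each). Levels run from 690 TPM for SLC25A3 to 0.730 TPM for SLC25A52, both as vehicle means.

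The family did not move as a block. Of the 47 members tested, 7 were higher and 14 lower after PDBAG1, the threshold being an adjusted p under 0.05 in limma. These were 14.9% and 29.8% of the members, against 21.7% of all tested genes called higher and 15.9% called lower. A rule that adds a 1.5-fold change was met by 2 members, among them SLC25A36, or 4.26% against 3.34% of all genes. The groups were fully separated, with no overlap between libraries, in 26 members, or 55.3% against 47.4% of all genes. The median log2FC was -0.05 over the members and 0.03 over all genes tested. The 7 higher members were SLC25A36, SLC25A37, SLC25A51, SLC25A45, SLC25A23, SLC25A22 and SLC25A1, and each kept its call under all 12 alternatives tried. Of the 14 lower members, 8 did so (among them UCP2, SLC25A33, SLC25A15, SLC25A10, MPC1, SLC25A17 and SLC25A11), and the other 6 lost it under at least 1. The number past the 1.5-fold rule became 4 without vehicle replicate 1, where SLC25A37 and SLC25A51 were past it too.

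**Figure D2:**
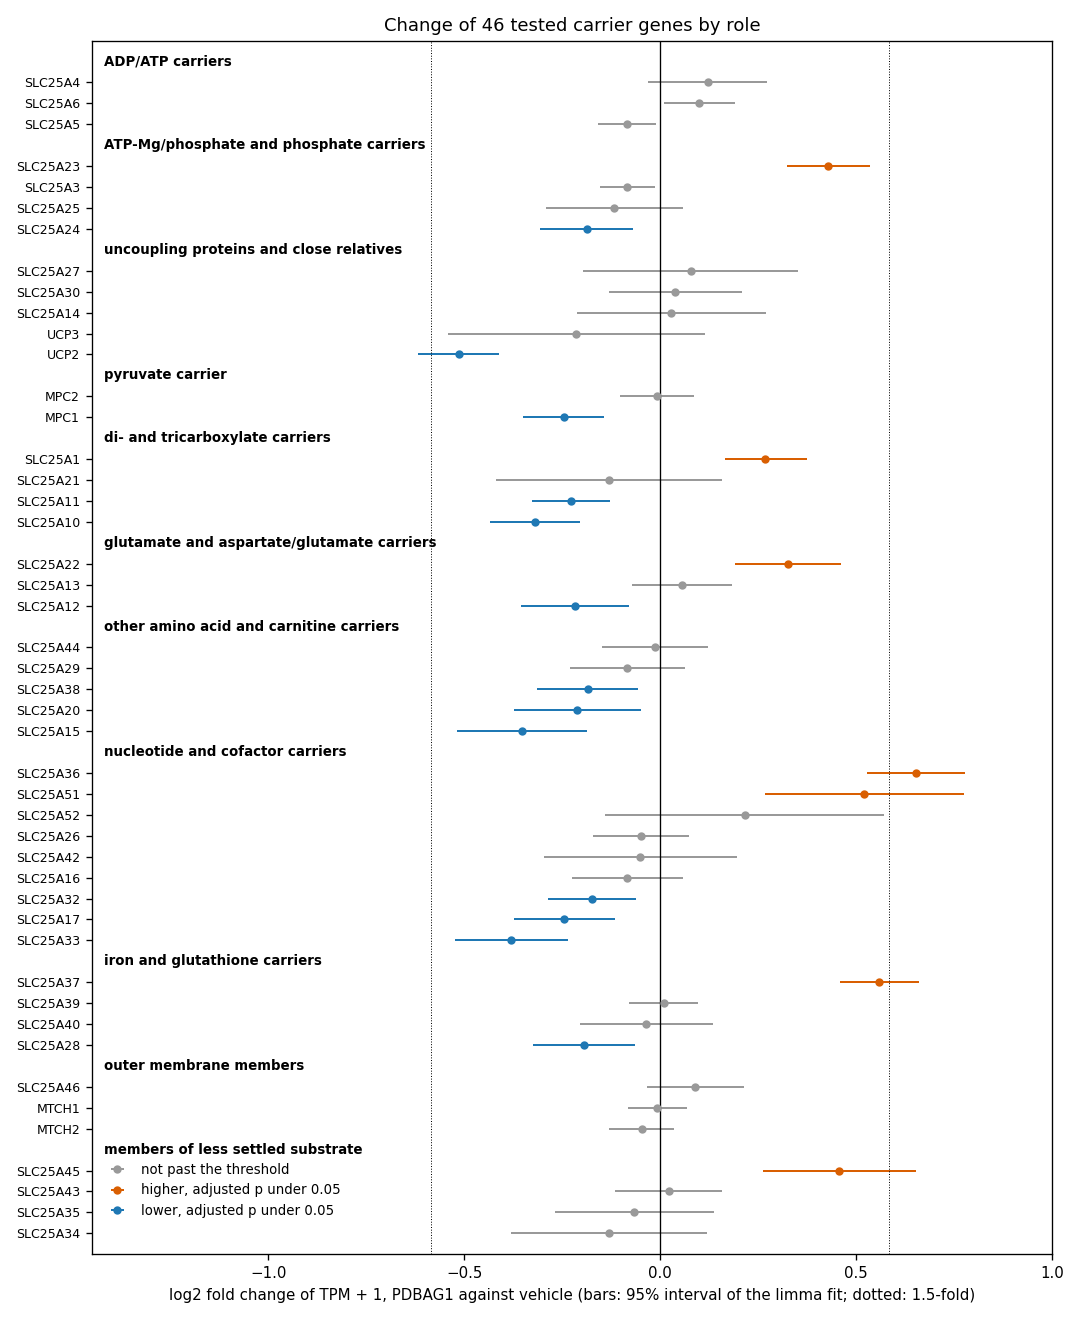
Log2 fold change of TPM + 1 with PDBAG1 against vehicle for 46 of the 47 tested members, grouped by role, with 95% intervals of the limma fit (orange higher, blue lower, grey not past an adjusted p of 0.05, dotted lines 1.5-fold). Higher and lower genes stand side by side in 5 of the groups, and SLC25A36 among the nucleotide and cofactor carriers stands farthest to the right, at 0.65.

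The most abundant carriers, those of ATP and phosphate exchange, did not pass the threshold. SLC25A5 (chromosome X, 119468422 to 119471396, GRCh38), the main ADP/ATP carrier of dividing cells, was at 556, 572 and 540 TPM in vehicle cells and 522, 526 and 525 TPM after PDBAG1, a log2FC of -0.08 (SE 0.04, adjusted p = 0.0705). SLC25A6 (chromosome X, 1386152 to 1392113) was at 282, 286 and 277 TPM in vehicle cells and 313, 310 and 284 TPM after PDBAG1, a log2FC of 0.10 (adjusted p = 0.0791). The SLC25A5 groups did not overlap, and those of SLC25A6 did, through PDBAG1 replicate 3, without which the log2FC of SLC25A6 was 0.14 and past the threshold. Over all alternatives the log2FC of SLC25A6 ranged from 0.04, with the trends of transcript length and GC removed, to 0.14, and that of SLC25A5 from -0.13, under median-of-ratios scaling, to -0.03, with those trends removed. SLC25A4 (chromosome 4, 185143266 to 185150382), the form of heart and skeletal muscle, was at 13.2, 15.0 and 14.6 TPM in vehicle cells and 15.8, 15.4 and 15.5 TPM after PDBAG1 (log2FC 0.12, adjusted p = 0.196). SLC25A5 made up 65.3%, 65.5% and 64.9% of the ADP/ATP carrier TPM in vehicle cells and 61.4%, 61.8% and 63.6% with PDBAG1, a difference of -2.98 percentage points. SLC25A6 made up 33.1% ± 0.294 and 35.9% ± 1.23, a difference of 2.81 percentage points. Neither share overlapped between groups (exact permutation test, p = 0.1 each, the smallest possible). The sum of all ADP/ATP carriers was 852 ± 20.6 TPM in vehicle cells and 842 ± 15.0 TPM after PDBAG1, with overlapping groups. The genome annotation lists 9 pseudogenes named after SLC25A5, 6 after SLC25A6 and an antisense gene beside SLC25A5, and how reads from such copies were assigned is not given in the sources used here.

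SLC25A3, the phosphate carrier (chromosome 12, 98593591 to 98606379), was at 690, 686 and 695 TPM in vehicle cells and 656, 640 and 658 TPM after PDBAG1. The groups did not overlap, and the log2FC was -0.08 (SE 0.03, adjusted p = 0.0560). It passed the threshold under median-of-ratios scaling (-0.13) and once each library was corrected for the length and GC content of transcripts (length and GC trends removed, -0.15), and it was smaller, at -0.05, under quantile normalization. The calcium-regulated ATP-Mg/phosphate carriers, which set the size of the adenine nucleotide pool in the matrix, split. SLC25A23 (chromosome 19, 6436079 to 6465203) rose from 38.0, 38.2 and 38.1 TPM to 52.0, 50.1 and 53.0 TPM, a log2FC of 0.43 (SE 0.05, adjusted p = 1.83e-05). SLC25A24 fell from 90.2 ± 3.89 to 79.2 ± 5.40 TPM, a log2FC of -0.19 (adjusted p = 0.0164). This call was lost without vehicle replicate 1 (-0.15) and without PDBAG1 replicate 1 (-0.13). SLC25A25 was at 8.42 ± 0.488 and 7.68 ± 0.380 TPM (log2FC -0.12, adjusted p = 0.279), and passed the threshold under quantile normalization (-0.22) and with the length and GC trends removed (-0.23). SLC25A23 thus made up 27.7% ± 0.952 of the TPM of SLC25A23, SLC25A24, SLC25A25 and SLC25A41 with vehicle and 37.2% ± 1.56 with PDBAG1, while the sum was 138 ± 4.56 and 139.1 ± 6.002 TPM.

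Among the uncoupling proteins and their relatives, UCP2 was the abundant gene and the one that changed. UCP2 (chromosome 11, 73974672 to 73982843), which exchanges C4 metabolites and is widely expressed in tumour lines, fell from 105, 111 and 117 TPM to 77.7, 76.3 and 77.8 TPM. All PDBAG1 libraries lay below the vehicle libraries, at a log2FC of -0.51 (SE 0.05, adjusted p = 2.46e-06). UCP3, which lies next to it on chromosome 11, was near the expression limit at 1.60 ± 0.510 and 1.23 ± 0.315 TPM (log2FC -0.21, adjusted p = 0.293). SLC25A14, SLC25A27 and SLC25A30 were between 3.29 and 22.6 TPM in all libraries, with overlapping groups and log2FCs between 0.03 and 0.08. Their signs changed under some alternatives.

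The carriers of pyruvate and of citric acid cycle intermediates moved in both directions. MPC1 (chromosome 6, 166364919 to 166383013), a required subunit of the pyruvate carrier, fell from 55.6, 55.6 and 56.3 TPM to 47.8, 45.4 and 47.5 TPM, a log2FC of -0.25 (SE 0.05, adjusted p = 0.00131). The fall was -0.14, still past the threshold, with the length and GC trends removed. Its partner MPC2 was at 90.5 ± 3.15 and 89.99 ± 1.25 TPM (log2FC -0.01, 95% interval -0.10 to 0.09). MPC1 was 38.2% ± 0.969 of the summed TPM of both with vehicle and 34.3% ± 0.501 with PDBAG1. SLC25A1 (chromosome 22, 19175581 to 19178739), which exports citrate to the cytosol for fatty acid and sterol synthesis, rose from 109, 115 and 104 TPM to 137, 127 and 132 TPM. Its groups did not overlap, and the log2FC was 0.27 (SE 0.05, adjusted p = 0.000717), or 0.18 with the length and GC trends removed. The dicarboxylate carrier SLC25A10 (chromosome 17, 81712236 to 81721016) fell from 53.4, 55.5 and 53.4 TPM to 45.9, 42.0 and 41.7 TPM (log2FC -0.32, adjusted p = 0.000417). The oxoglutarate/malate carrier SLC25A11, part of the malate-aspartate shuttle (chromosome 17, 4937130 to 4940053), fell from 103, 107 and 112 TPM to 94.1, 90.5 and 89.9 TPM (log2FC -0.23, adjusted p = 0.00178). SLC25A21, the oxodicarboxylate carrier, stayed low at 0.670 to 1.30 TPM, with overlapping groups.

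SLC25A22, the glutamate carrier that the study examined as a possible binding protein of PDBAG1, was higher at the transcript level. In its follow-up pull-down the paper reports binding for DHX57 and C1QBP, and does not name SLC25A22 among the proteins bound. SLC25A22 (chromosome 11, 790475 to 798281) rose from 38.5, 34.6 and 35.4 TPM to 46.2, 42.4 and 48.3 TPM. Its groups were separate, with 38.5 TPM the highest in vehicle cells and 42.4 TPM the lowest after PDBAG1, and the log2FC was 0.33 (SE 0.06, 95% interval 0.19 to 0.46, adjusted p = 0.00109). With each library left out in turn it stayed between 0.29 and 0.38, and it was 0.19 with the length and GC trends removed, past the threshold in every case. SLC25A18, the second glutamate carrier, was below the filter, so that SLC25A22 was the expressed form. Of the aspartate/glutamate carriers, the other arm of the malate-aspartate shuttle, SLC25A12 fell from 28.8, 25.5 and 27.7 TPM to 22.3, 23.4 and 24.4 TPM (log2FC -0.22, adjusted p = 0.0171). Its call was lost without vehicle replicate 1 (-0.18), vehicle replicate 3 (-0.21) or PDBAG1 replicate 2 (-0.22). SLC25A13 was at 31.5 ± 1.61 and 32.7 ± 1.26 TPM (log2FC 0.06, 95% interval -0.07 to 0.18). SLC25A13 made up 53.5% ± 2.19 of the pair with vehicle and 58.4% ± 0.476 with PDBAG1, without overlap.

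The carriers of other amino acids and of carnitine esters held 3 lower genes among the 5 tested, against 29.8% of all members and 15.9% of all genes, and 2 of these 3 calls were lost under some alternatives. SLC25A15 (chromosome 13, 40789412 to 40812460), the ornithine carrier of the urea cycle and polyamine precursors, fell from 16.9, 16.5 and 14.9 TPM to 11.4, 12.9 and 12.8 TPM, a log2FC of -0.35 (SE 0.08, adjusted p = 0.00270). The annotation lists 5 pseudogenes named after it, and also 5 after SLC25A1. Some other members have such copies too, such as SLC25A3 with 3 and SLC25A24 with 2. SLC25A20, which brings acylcarnitines to fat oxidation, fell from 13.8 ± 1.13 to 11.7 ± 0.0709 TPM (log2FC -0.21, adjusted p = 0.0406). It kept its call in 1 of the 6 fits that left out a library, the one without vehicle replicate 3, with values between -0.26 and -0.15 over the 6, and lost it without the filter and with the replicate number as a block. SLC25A38, the glycine carrier that supplies haem synthesis, fell from 34.2 ± 1.28 to 30.0 ± 1.62 TPM (log2FC -0.19, adjusted p = 0.0253). Its call was lost without vehicle replicate 2 (-0.19), vehicle replicate 3 (-0.16) or PDBAG1 replicate 2 (-0.15), and with the block. SLC25A29 and SLC25A44 were at 22.0 to 26.7 TPM with overlapping groups, and SLC25A29 went from a log2FC of -0.08 to -0.21, past the threshold, with the length and GC trends removed.

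The nucleotide and cofactor carriers held the largest rise. SLC25A36 (chromosome 3, 140941830 to 140980995), a carrier of pyrimidine nucleotides, had the largest rise of all members as reported (0.60 against 0.61 for SLC25A51 with the length and GC trends removed), from 39.2, 38.0 and 38.4 TPM to 56.2, 63.0 and 64.7 TPM. Every PDBAG1 library stood well above every vehicle library, with a log2FC of 0.65 (SE 0.06, adjusted p = 1.54e-06). SLC25A33 (chromosome 1, 9539465 to 9585173), which also carries pyrimidine nucleotides, went the other way, from 25.8, 24.2 and 23.2 TPM to 19.2, 19.0 and 17.4 TPM (log2FC -0.38, SE 0.07, adjusted p = 0.000588). The share of SLC25A36 in the TPM of both was 60.4%, 61.0% and 62.4% in vehicle cells and 74.6%, 76.8% and 78.8% after PDBAG1, a difference of 15.5 percentage points (exact permutation test, p = 0.1, the smallest possible). The sum of both was 62.9 ± 1.86 TPM in vehicle cells and 79.8 ± 3.83 TPM after PDBAG1.

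SLC25A51 (chromosome 9, 37879400 to 37904353), which brings NAD into the matrix, rose from 20.3, 15.5 and 17.9 TPM to 20.7, 28.9 and 29.3 TPM (log2FC 0.52, SE 0.12, adjusted p = 0.00350). PDBAG1 replicate 1 lay just above vehicle replicate 1, and with a library left out the log2FC ranged from 0.43, without vehicle replicate 2, to 0.68, without PDBAG1 replicate 1. SLC25A51 has 4 pseudogenes named after it, and its close relative SLC25A52 was at 0.450 to 1.33 TPM. SLC25A17 (chromosome 22, 40769630 to 40819399), the peroxisomal cofactor carrier, fell from 24.5 ± 0.863 to 20.5 ± 0.467 TPM (log2FC -0.24, adjusted p = 0.00597). SLC25A32, the folate and FAD carrier, fell from 67.7 ± 0.426 to 59.9 ± 3.81 TPM (log2FC -0.17, adjusted p = 0.0182), a call lost without vehicle replicate 3 (-0.17) or PDBAG1 replicate 2 (-0.14). SLC25A16, SLC25A26 and SLC25A42 were not past the threshold, at log2FCs of -0.08, -0.05 and -0.05. SLC25A16 was past it under quantile normalization (-0.16) and with the length and GC trends removed (-0.15).

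The upstream sequence of the 2 pyrimidine carriers, which moved in opposite directions, is shown with that of SLC25A51, a riser, and SLC25A22, the carrier named by the study. Each runs 5′ to 3′ over the 250 bases before the RefSeq start (GRCh38.p14), at chr3:140941586-140941835 for SLC25A36 (plus strand), chr1:9539215-9539464 for SLC25A33 (plus strand), chr9:37904128-37904377 for SLC25A51 (minus strand) and chr11:798282-798531 for SLC25A22 (minus strand). A single RefSeq start was taken per gene, and it can differ from the gene position given above. The SLC25A51 window lies mostly inside the gene as positioned above, which reaches 37904353, and its CACGTG does too. Capitals mark ACGTG on either strand, the letters at the core of many hypoxia response elements; where they read CACGTG, an E-box, the same 6 bases hold ACGTG on both strands.
SLC25A36: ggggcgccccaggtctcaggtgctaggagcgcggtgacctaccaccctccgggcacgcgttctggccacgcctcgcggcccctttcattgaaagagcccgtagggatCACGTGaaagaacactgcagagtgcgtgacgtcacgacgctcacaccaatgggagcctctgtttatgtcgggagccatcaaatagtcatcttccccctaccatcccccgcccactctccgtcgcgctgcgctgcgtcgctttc
SLC25A33: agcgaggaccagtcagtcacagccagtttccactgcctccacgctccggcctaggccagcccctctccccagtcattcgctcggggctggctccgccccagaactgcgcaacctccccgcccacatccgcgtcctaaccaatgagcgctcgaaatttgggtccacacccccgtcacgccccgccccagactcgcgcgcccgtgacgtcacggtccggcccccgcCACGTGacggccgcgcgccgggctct
SLC25A51: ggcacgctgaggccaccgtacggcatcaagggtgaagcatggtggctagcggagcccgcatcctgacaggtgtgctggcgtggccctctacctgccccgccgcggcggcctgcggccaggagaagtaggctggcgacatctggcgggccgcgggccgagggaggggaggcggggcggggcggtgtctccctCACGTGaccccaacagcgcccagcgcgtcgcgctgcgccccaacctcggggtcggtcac
SLC25A22: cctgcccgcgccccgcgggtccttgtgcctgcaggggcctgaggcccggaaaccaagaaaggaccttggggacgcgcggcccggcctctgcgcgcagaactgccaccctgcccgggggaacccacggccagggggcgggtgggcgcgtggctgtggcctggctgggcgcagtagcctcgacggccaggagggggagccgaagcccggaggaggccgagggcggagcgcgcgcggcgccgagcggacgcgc
SLC25A36, SLC25A33 and SLC25A51 each held 1 CACGTG, and SLC25A22 had no ACGTG in this window. Promoters of 45 of the 53 members were matched by symbol. ACGTG lay in 12 of these 45 (26.7%) and in 21.5% of the 13670 promoters of genes in the files, and CACGTG in 8 (17.8%) and in 8.23%. By call, ACGTG was in 3 of 6 higher, 3 of 12 lower and 5 of 23 members not past the threshold. CACGTG was in 2 of 6 higher members (SLC25A36 and SLC25A51), 2 of 12 lower (SLC25A33 and SLC25A38) and 3 of 23 not past the threshold. Whether these letters act on any of these transcripts was not tested.

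The mitoferrins, which import iron for haem and iron-sulphur clusters, also split. SLC25A37 (mitoferrin 1; chromosome 8, 23528956 to 23575463) rose from 87.6, 81.6 and 82.8 TPM to 120, 129 and 123 TPM, a log2FC of 0.56 (SE 0.05, adjusted p = 8.94e-07). SLC25A28 (mitoferrin 2) fell from 53.5, 48.7 and 54.8 TPM to 46.3, 47.8 and 42.6 TPM (log2FC -0.20, adjusted p = 0.0210). The groups of SLC25A28 came close, and the call did not hold without the filter on low TPM (-0.20), without vehicle replicate 1 (-0.18), without vehicle replicate 3 (-0.16) and without PDBAG1 replicate 3 (-0.15). SLC25A37 made up 61.6% ± 1.28 of the summed mitoferrin TPM in vehicle cells and 73.2% ± 1.02 with PDBAG1, and the sum was 136 ± 5.52 and 170 ± 6.39 TPM. The glutathione carriers SLC25A39 and SLC25A40 were at 172 ± 3.15 and 16.1 ± 1.53 TPM in vehicle cells and 173 ± 6.29 and 15.7 ± 0.926 TPM after PDBAG1. Their groups overlapped, and the 95% intervals of the log2FC were -0.08 to 0.10 and -0.21 to 0.13.

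**Figure D3:**
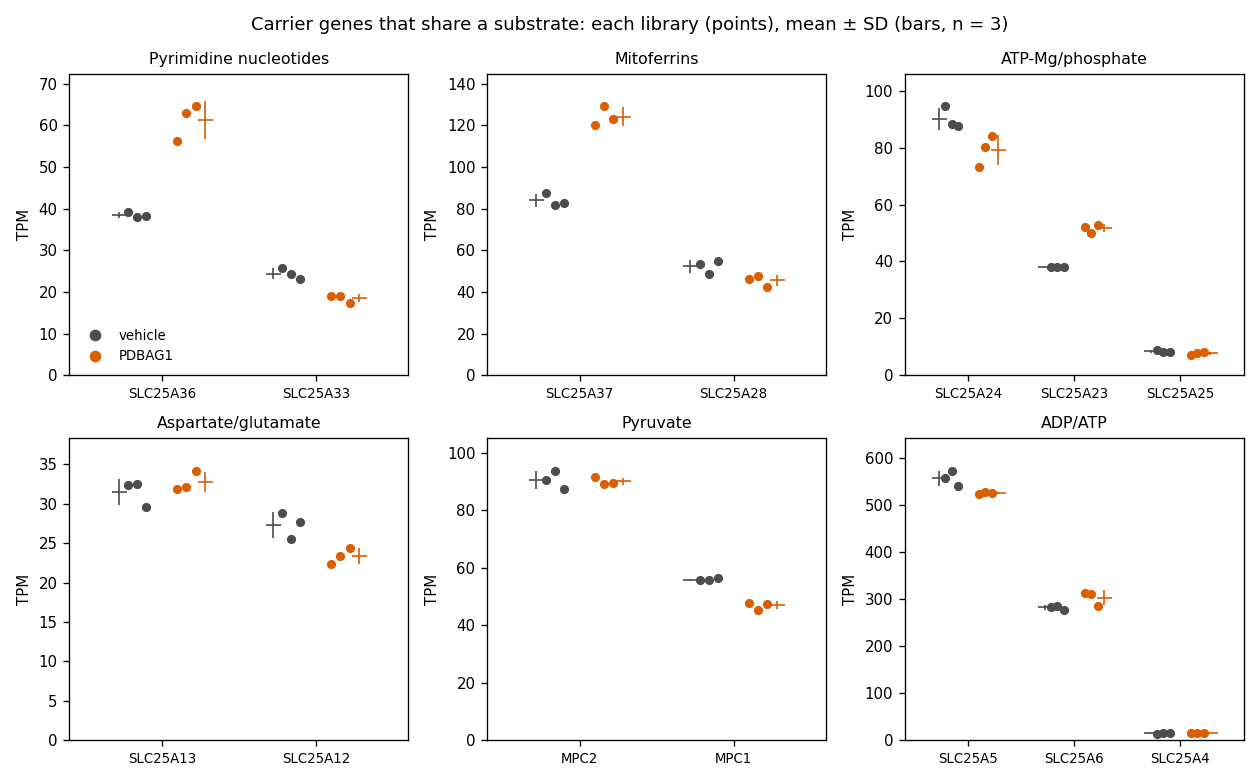
TPM of carriers that share a substrate, on axes from 0, with 1 point per library and mean ± SD (n = 3; vehicle grey, PDBAG1 orange). SLC25A36 and SLC25A37 rise while SLC25A33 and SLC25A28 fall, SLC25A23 rises below SLC25A24, and the large ADP/ATP carriers differ little between groups.

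These within-library shares of carriers with a common substrate, apart from those of the ADP/ATP carriers, were chosen after the values were seen. They need no scaling between libraries. No share of SLC25A36, SLC25A37, SLC25A23, SLC25A13 or MPC1 overlapped between groups, and 47.4% of all single genes tested did not overlap either. How often shares of other gene pairs separate was not computed. These shares restate the values of their genes and are not separate evidence. The outer membrane members differed little. MTCH1 was at 352 ± 4.91 and 351 ± 3.99 TPM and MTCH2, an insertase for outer membrane proteins, at 176 ± 1.77 and 170 ± 3.19 TPM, with log2FCs of -0.01 (95% interval -0.08 to 0.07) and -0.05 (-0.13 to 0.04). SLC25A46, which acts in mitochondrial dynamics, was at 46.05 ± 1.26 and 49.1 ± 3.35 TPM (log2FC 0.09, adjusted p = 0.239). MTCH1 was past the threshold with the length and GC trends removed (-0.07) and changed sign under quantile normalization. Of the members of less settled substrate, SLC25A45 (chromosome 11, 65375192 to 65383701) rose from 3.16, 3.54 and 3.36 TPM to 5.17, 4.91 and 4.85 TPM, a log2FC of 0.46 (SE 0.09, adjusted p = 0.00146). SLC25A34, SLC25A35 and SLC25A43 were not past the threshold, with log2FCs from -0.13 to 0.02.

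**Figure D4:**
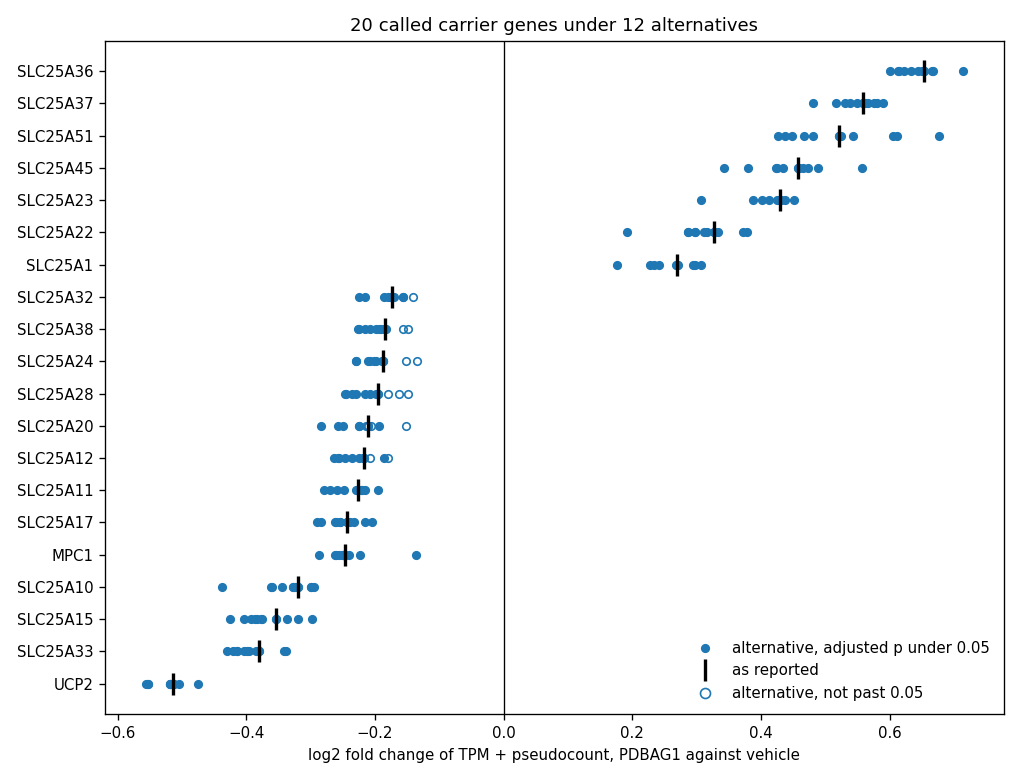
Log2 fold change of 20 of the 21 called members as reported (black ticks) and under 12 alternatives (circles, filled where the adjusted p was under 0.05). The 7 higher genes stay filled throughout, and open circles appear in 6 of the lower genes, those between -0.17 and -0.22 as reported.

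Genes that work alongside the carriers were described from 3 lists. Of 13 genes of the import route that places carriers in the inner membrane, 10 were lower (15.9% of all genes were) and the log2FC of all 13 was negative, with a median log2FC of -0.27. TIMM8A, a small chaperone of the intermembrane space, fell from 20.3 ± 0.923 to 14.6 ± 0.477 TPM (log2FC -0.45), the receptor subunit TOMM22 from 90.05 ± 3.32 to 70.3 ± 4.46 TPM (-0.35) and the chaperone TIMM10 from 176 ± 10.9 to 139 ± 8.05 TPM (-0.34). Of 20 other mitochondrial transporters and channels, 2 were higher and 5 lower, with a median of -0.03, where 21.7% of all genes were higher and 15.9% lower. Of 13 tested enzymes that use carrier substrates, 5 were higher and 2 lower, with a median of 0.06, against 21.7% and 15.9% of all genes. The largest changes among them were rises. ACLY, which splits the citrate that SLC25A1 exports, rose from 143 ± 4.84 to 175 ± 3.99 TPM (log2FC 0.29), the carnitine acetyltransferase CRAT from 18.0 ± 0.313 to 23.4 ± 0.350 TPM (0.36) and CPT1A, which makes the acylcarnitines that SLC25A20 carries, from 21.4 ± 0.471 to 25.7 ± 1.25 TPM (0.26).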

How the data were processed

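RNA from 6 samples of MDA-MB-231 cells, 3 given vehicle and 3 given 30 µM PDBAG1 for 24 h, was sequenced. The labels give the source as tissue beside the name of the line. The values the authors deposited are TPM, 1 file per library, rounded to 2 decimals, over 17631 genes. The methods describe BGISEQ-500 sequencing, HISAT2 mapping to GRCh38.p13 and FPKM, whereas the submitters' processing notes name HISAT2 2.0.4, Bowtie2 2.2.5, RSEM 1.2.12 and GRCh38.p12. How TPM were made and the annotation release are not given in the sources used here. TPM keeps no counts, so no counting error could be given.

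Samples were grouped by their titles. Genes reaching 1 TPM in no fewer than 3 libraries entered the test on log2(TPM + 1) with limma 3.58.1 in R 4.3.3 (lmFit, eBayes with a trend of variance), and a call is a Benjamini-Hochberg adjusted p under 0.05 over all 12582 genes. Shares were compared by exact two-sided permutation. The fit was tested on simulated data first. Genes named in full were SLC25A22, the ADP/ATP, pyruvate, uncoupling and outer membrane members, up to 8 called members with the largest rise and 8 with the largest fall, and up to 3 called genes per comparator list. Other named members were picked after their values were seen. Members and lists were chosen with earlier results of these data known. Positions and transcript lengths are from GENCODE release 44 (GRCh38). Alternatives were no filter, a pseudocount of 0.1, a replicate block, each library left out, 2 scalings, and removal of length and GC trends (12433 genes). Protein sequences were not used here. No gene among the deposited values carried the symbol SLC25A47, so it was not analysed here. The values of 1 called member are not reported here, and the figures leave it out, but counts and medians include it.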

Additional observations from a re-analysis of the deposited data

How the results depend on the processing

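All 7 higher members and 8 of the 14 lower members kept direction and call under the 12 alternatives. The other 6 lower members lost the call under at least 1, and no called member changed sign. Higher members numbered 7 under every alternative except without PDBAG1 replicate 3, where there were 8. Lower members numbered 12 without the filter and with the replicate block, 15 and 16 under median-of-ratios scaling and quantile normalization, 19 with length and GC trends removed, and 10 to 12 with a library left out. Members past 1.5-fold ranged from 2 to 4 with a library left out, 4 without vehicle replicate 1. The members' median of -0.05 became -0.089 under median-of-ratios scaling and -0.081 under quantile normalization, settings in which the median of all genes was -0.01 and -0.02. With the replicate block the members' median was -0.05 and the log2 fold change of SLC25A22 0.33. The block ended the calls of SLC25A20 and SLC25A38, but the numbers showed no pairing: the correlations of deviations within numbers 1, 2 and 3 were -0.21, 0.01 and -0.08.

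Signs changed only in members that did not pass the threshold. Under median-of-ratios scaling these were SLC25A39 (-0.032), SLC25A43 (-0.018), SLC25A30 (-0.001) and SLC25A14 (-0.011). Under quantile normalization they were MTCH1 (0.039), SLC25A43 (-0.026), SLC25A30 (-0.015), SLC25A14 (-0.05) and SLC25A27 (-0.037). With length and GC trends removed they were SLC25A39 (-0.062) and MPC2 (0.032). With a library left out, MTCH1 ranged from -0.013 to 0.005, SLC25A39 from -0.014 to 0.038, MPC2 from -0.032 to 0.017, SLC25A44 from -0.051 to 0.032, SLC25A43 from -0.005 to 0.063, SLC25A30 from -0.032 to 0.093, SLC25A40 from -0.10 to 0.033, SLC25A14 from -0.093 to 0.15, SLC25A35 from -0.15 to 0.001, SLC25A27 from -0.053 to 0.19 and SLC25A42 from -0.11 to 0.035. The cause of these changes was not tested. The depth is unknown, so precision rests on 3 libraries per group.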

Other observations

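The sideroflexins, mitochondrial transporters outside the SLC25 family that include the serine carriers SFXN1 and SFXN3, held both the largest rise and the largest fall among the 20 other mitochondrial transporters and channels. SFXN3 rose from 65.9, 60.7 and 61.3 TPM to 103, 104 and 99.5 TPM, a log2FC of 0.70 (SE 0.05, adjusted p = 1.37e-07). SFXN2 fell from 19.5, 16.8 and 16.3 TPM to 10.3, 10.3 and 9.32 TPM (log2FC -0.76, adjusted p = 9.18e-06), and SFXN4 fell from 50.02 ± 1.201 to 40.5 ± 1.42 TPM (log2FC -0.30, adjusted p = 0.000511). SFXN1 was at 84.6 ± 3.72 and 75.5 ± 6.55 TPM (log2FC -0.17, adjusted p = 0.0475), with overlapping groups. Within the 5 sideroflexins, SFXN3 held 28.5% ± 0.269 of the summed TPM in vehicle cells and 43.9% ± 1.73 after PDBAG1 (SD, n = 3), while the sum was 220 ± 9.18 and 233 ± 6.98 TPM. SFXN1 and the shares were picked after their values were seen.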
